A study of Mus musculus with 24 samples.

Results

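The 9 genes described here encode transcription factors of hepatocytes, the metabolic cells of the liver: Hnf4a, Foxa1, Foxa2, Foxa3, Cebpa, Onecut1, Prox1, Nr1h4 and Nr1i3. They were chosen by name, and are 9 of the 24930 curated RefSeq genes on the mouse autosomes. DNA methylation had been measured at CpGs by enhanced reduced representation bisulphite sequencing (eRRBS), which reads the part of the genome close to restriction sites. The values are levels of tiles, windows of 100 bases, and a level is the share of reads that were methylated. Each locus ran from 10 kb upstream of the first transcription start to the end of the gene on mm10. The 9 loci held 381 tiles, of which 335 were present in the liver, brain and heart tables together and could be compared.

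The series holds 24 libraries from C57Bl/6J mice at 24 weeks of age: 12 of liver, 6 of brain and 6 of heart, with as many males as females in each tissue. All mice were of the same inbred strain and none carried a treatment or an engineered allele in the labels. The columns of the tables carry running numbers that match no mouse and no gender, so libraries could be compared between tissues only, and males and females stayed mixed in each group. By the mouse numbers in the labels, the brain and heart libraries came from mice that also gave a liver library, but the columns could not be paired. For a pair of mice the label of the liver library names another gender than the labels of the brain and heart libraries, and gender was used in no step.

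Hepatocyte identity rests on a small set of transcription factors that bind each other's genes and the genes of liver metabolism. In vertebrates, methylation of CpGs at a promoter goes with a silent gene, CpG-rich promoters are mostly free of methylation whether the gene is used or not, and enhancers lose methylation in the tissue where they are bound. CpG-rich regions around developmental genes can also gain methylation in some tissues without the promoter itself gaining any.

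The following tiles of 100 bases are shown because each carried the largest called difference between liver and another tissue at its gene, or the largest one outside a UTR for Hnf4a and Nr1i3. They are read from the RefSeq sequence of GRCm38 (mm10), plus strand, 5′ to 3′, with CpGs in capitals. A single capital at the end of a run is the base of a CpG that crosses the edge of the tile.
Hnf4a, chr2:163547602-163547701: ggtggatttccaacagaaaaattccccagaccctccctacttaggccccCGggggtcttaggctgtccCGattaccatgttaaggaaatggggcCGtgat
Nr1i3, chr1:171214402-171214501: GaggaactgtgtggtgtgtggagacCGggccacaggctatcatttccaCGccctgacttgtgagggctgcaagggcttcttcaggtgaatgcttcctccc
Foxa3, chr7:19019802-19019901: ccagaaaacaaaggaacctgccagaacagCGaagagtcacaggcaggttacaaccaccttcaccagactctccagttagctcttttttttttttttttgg
Cebpa, chr7:35117002-35117101: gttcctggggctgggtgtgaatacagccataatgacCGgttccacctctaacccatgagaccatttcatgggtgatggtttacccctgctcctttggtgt
Nr1h4, chr10:89521902-89522001: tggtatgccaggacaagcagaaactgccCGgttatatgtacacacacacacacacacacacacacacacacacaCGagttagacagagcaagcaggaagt
Onecut1, chr9:74889302-74889401: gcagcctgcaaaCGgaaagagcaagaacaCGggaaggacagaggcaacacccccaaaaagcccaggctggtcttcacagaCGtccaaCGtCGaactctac
Foxa1, chr12:57550502-57550601: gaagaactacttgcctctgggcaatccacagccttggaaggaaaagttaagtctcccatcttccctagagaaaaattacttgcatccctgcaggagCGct
Prox1, chr1:190137802-190137901: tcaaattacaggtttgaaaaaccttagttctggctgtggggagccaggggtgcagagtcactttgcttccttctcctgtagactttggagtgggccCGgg
The Hnf4a, Foxa3, Prox1 and Nr1h4 tiles lie in introns, the Onecut1 and Nr1i3 tiles lie on coding exons, and the Foxa1 and Cebpa tiles upstream of their genes, in no curated transcript. The Foxa1, Foxa3, Cebpa and Prox1 tiles hold 1 CpG each, so that their levels rest on a single site. The Nr1h4 tile holds a CA repeat over much of its length, and 53 of its bases are repeat-masked.

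The tissue labels were checked on marker genes. The body of Alb, which encodes albumin, was at 20.7% in liver, 89.0% in brain and 77.9% in heart, and that of Ttr at 19.8%, 43.4% and 57.9%. Apoa1 had no shared tile, and Tf was matched by no curated symbol. The bodies of the heart genes Myl2, Myh6, Tnnt2 and Ryr2 were lowest in heart, at 48.4%, 52.6%, 47.3% and 62.9%. The promoter and body levels of the brain genes Gfap, Snap25, Slc17a7 and Olig2 did not differ by 30 points or more between any tissues, so they check the brain label little. Mean levels over the 758685 shared tiles were 64.8% to 66.1% in liver, 63.7% to 66.4% in brain and 59.6% to 60.3% in heart libraries. Libraries of the same tissue correlated at 0.942 to 0.977 across tiles. The brain library in column 1 stood apart, with a mean correlation of 0.92 with the heart libraries against 0.884 to 0.896 for the other brain libraries, and results on brain were repeated without it. The libraries came from homogenised pieces of tissue, from the rostral brain, the apex of the heart and the left liver lobe. A smaller share of one cell type and a lower level per cell therefore cannot be told apart.

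In tests of single tiles, a tile was called where limma gave an adjusted p of 0.01 or less over all shared tiles and the tissue means differed by 30 percentage points or more. The liver was lower than brain at 60 of the 335 tiles, 17.9%, against 3.68% of all tiles of the series. It was lower than heart at 42 tiles, 12.5%, against 2.35% of all tiles. It was higher than brain at 24 tiles, 7.16%, against 3.5%, and higher than heart at 24 tiles, also 7.16%, against 5.49%. Brain was lower than heart at 6 tiles, 1.79% against 1.08%, and higher at 11 tiles, 3.28% against 4.79%. The comparisons with brain and with heart share the liver libraries. The median difference between liver and brain was -0.69 points over the 335 tiles and 0.28 points over all tiles, and that between liver and heart -0.17 and 3.5 points. The calls were thus spread over a minority of the tiles, while 117 of the 335 were below 10% in each of the tissues.

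**Figure D1:**
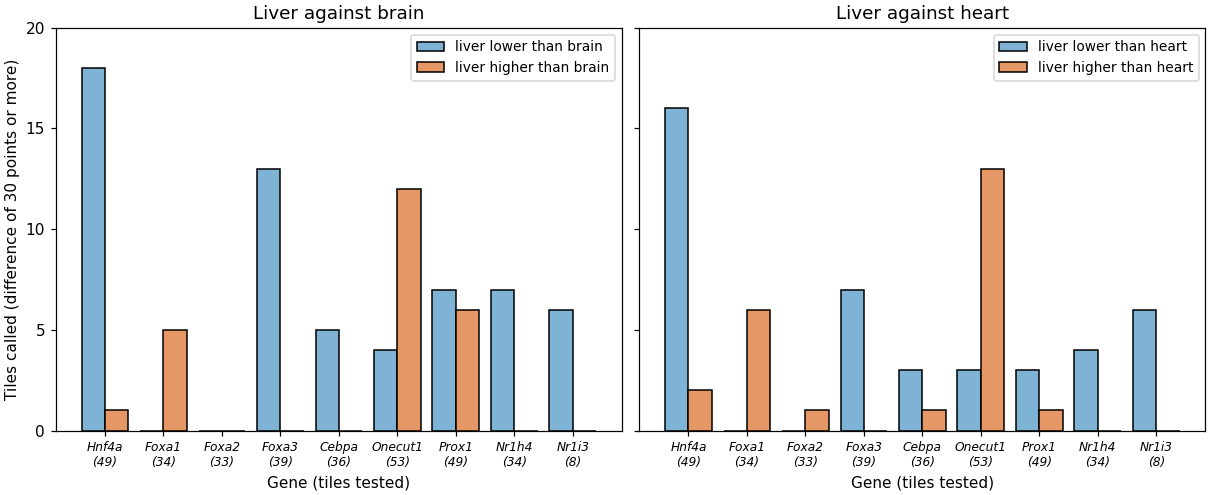
Number of tiles called lower (blue) or higher (orange) in liver than in brain (left) and than in heart (right) at each gene, with the number of shared tiles tested in parentheses. Hnf4a has the most tiles lower in liver (18 and 16), and Onecut1 the most tiles higher in liver (12 and 13).

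The genes fell into different patterns. At Hnf4a and Nr1i3 the promoter tiles, nearly all of them downstream of a start, were low in liver and high elsewhere. At Foxa3, Cebpa and Nr1h4 tiles outside the promoter were low in liver. At Foxa1 and Onecut1 a wide upstream region was higher in liver, with Onecut1 also lower at its end, and Prox1 held tiles of both kinds. Foxa2 differed little. Of the 98 shared tiles whose tissue means spanned 30 points or more, liver was lowest at 64 and highest at 30. The same counts over all shared tiles are not given here, so this split sets the genes apart from no others. Of the 98 tiles, 30 lay upstream, 8 in promoters and 60 in gene bodies. The smallest spans inside this limit were 30.3 and 30.5 points at Prox1 and 31.0 points at Foxa3, and the largest outside it were 29.8 points at Nr1h4, 28.2 at Foxa2 and 27.7 at Onecut1.

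**Figure D2:**
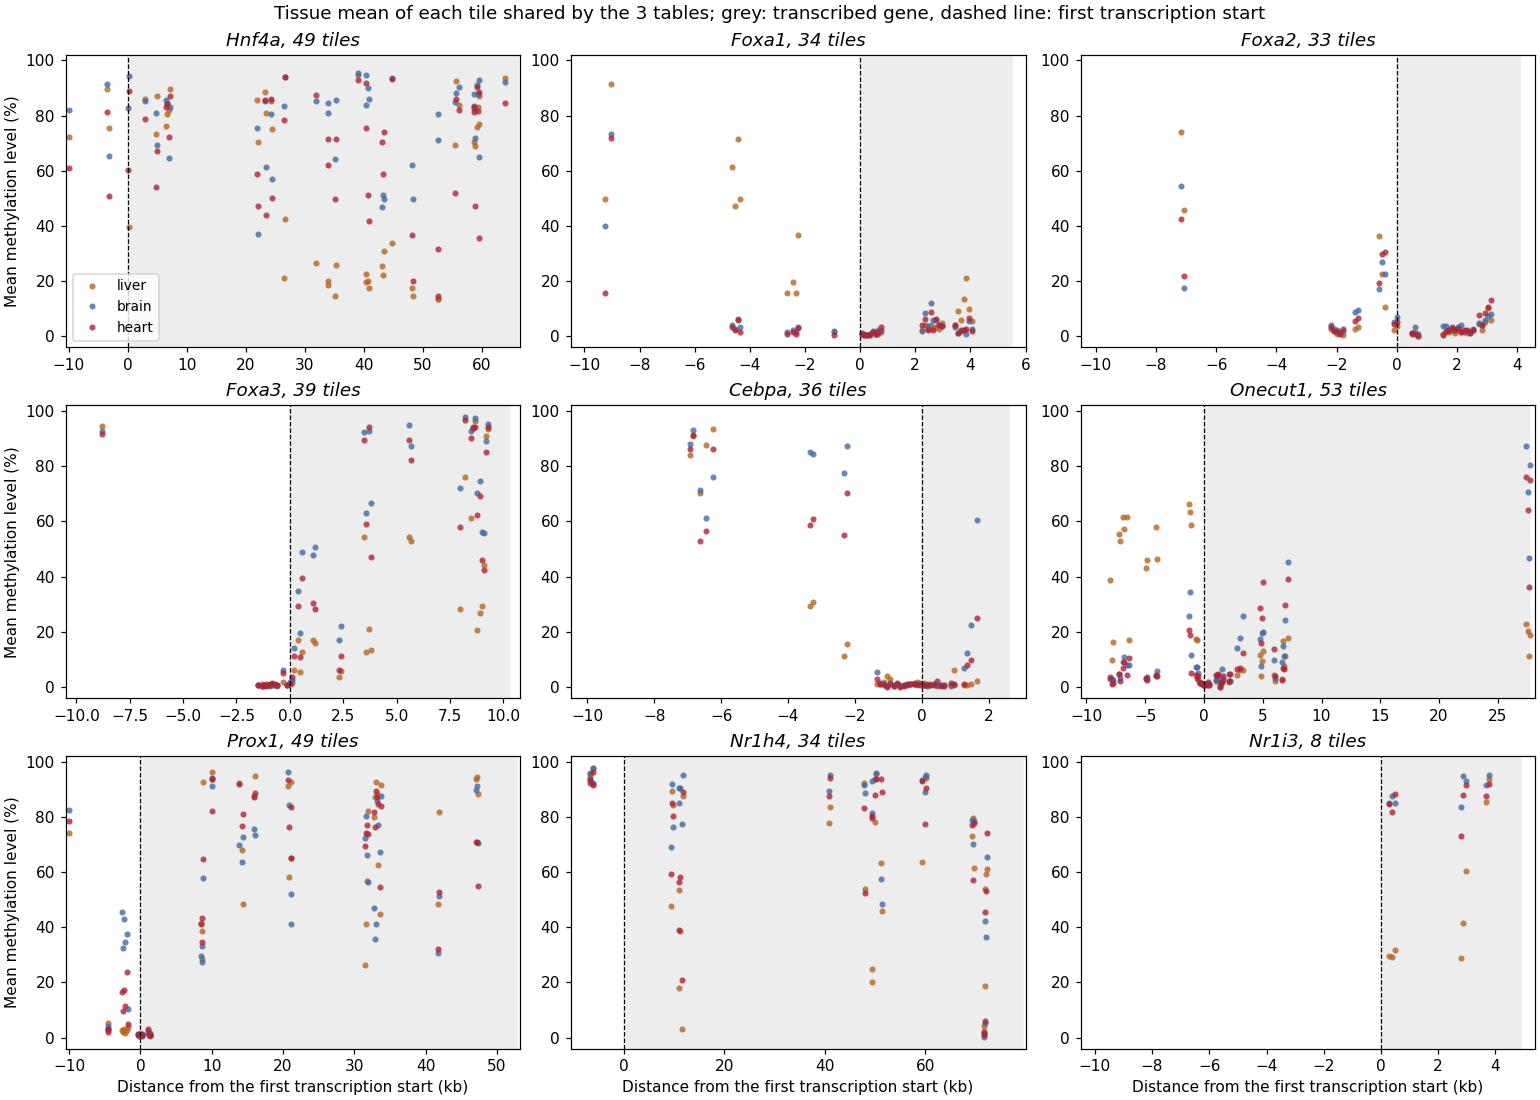
Mean methylation level (%) of each shared tile in liver, brain and heart against its distance (kb) from the first transcription start of the gene, with the transcribed gene in grey. Liver points lie below the others over much of Hnf4a, Foxa3 and Nr1i3 and above them upstream of Foxa1 and Onecut1, and most tiles around the starts of Foxa1, Foxa2, Foxa3, Cebpa, Onecut1 and Prox1 lie below 10% in every tissue.

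Promoter levels were taken as the mean over shared tiles from 1000 bases upstream to 500 bases downstream of any curated start. Hnf4a encodes a nuclear receptor that hepatocytes need to differentiate. Its promoter level over 5 tiles was 18.7% to 29.2% in the 12 liver libraries, with a median of 24.0%. Of these tiles only chr2:163506802-163506901 reached upstream of a start, and the others lay downstream of one. The 6 brain libraries lay between 84.2% and 92.8% around a median of 90.2%, and the 6 heart libraries between 71.1% and 76.5% around 73.0%. No liver library reached the level of any other library. The liver was lower than brain by 65.3 points (SE 1.52, adjusted p = 2.3e-21 by limma over all genes) and lower than heart by 49.7 points (SE 1.52, adjusted p = 1.2e-18 by limma). Nr1i3 encodes the constitutive androstane receptor, which switches on genes of drug metabolism. Its 3 promoter tiles, 0.3 to 0.5 kb downstream of the start, gave 18.0% to 39.9% in liver, with a median of 30.2%. No Nr1i3 tile lay upstream of the start. Brain libraries lay between 81.0% and 92.6% and heart libraries between 78.4% and 90.2%, so the groups did not overlap here either. The liver was lower by 55.7 points against brain (SE 2.43, adjusted p = 3.7e-16 by limma) and by 54.6 points against heart (SE 2.43, adjusted p = 9.3e-16 by limma). These were the promoters called among the 8 genes with a promoter tile. Of all promoters in the series, 1.59% were called lower in liver than in brain and 1.02% lower than in heart.

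The mean levels of the other promoters were below 10% in all tissues. Cebpa, a basic leucine zipper factor that drives metabolic genes, had 1.36% in liver, 0.78% in brain and 0.86% in heart over 16 tiles. Foxa1, Foxa2 and Foxa3 encode forkhead factors that open chromatin at liver enhancers. Foxa1 stood at 1.07%, 1.20% and 0.79%, Foxa2 at 6.29%, 7.45% and 7.50%, and Foxa3 at 3.12%, 6.91% and 5.55%. Prox1, a homeobox factor of hepatoblasts that is also used by lymphatic vessels and some neurons, had 1.20%, 1.21% and 1.23%. Onecut1, also known as HNF6, had 4.43%, 2.66% and 2.04%. Of the 75 promoter tiles, 59 were below 10% in each tissue. The mean levels of these promoters differed between liver and brain by 3.79 points or less. Single tiles stood higher, up to 36.2% in liver and 30.7% in heart at Foxa2 and up to 34.8% in brain at Foxa3. The 6 tiles at the first Foxa2 start averaged 12.7% in liver, 13.4% in brain and 15.2% in heart. Nr1h4, which encodes the bile acid receptor FXR, had no promoter tile. Promoter tiles held a median of 9 CpGs at Cebpa and 10 at Foxa1, against 4 at Hnf4a and 2 at Nr1i3.

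**Figure D3:**
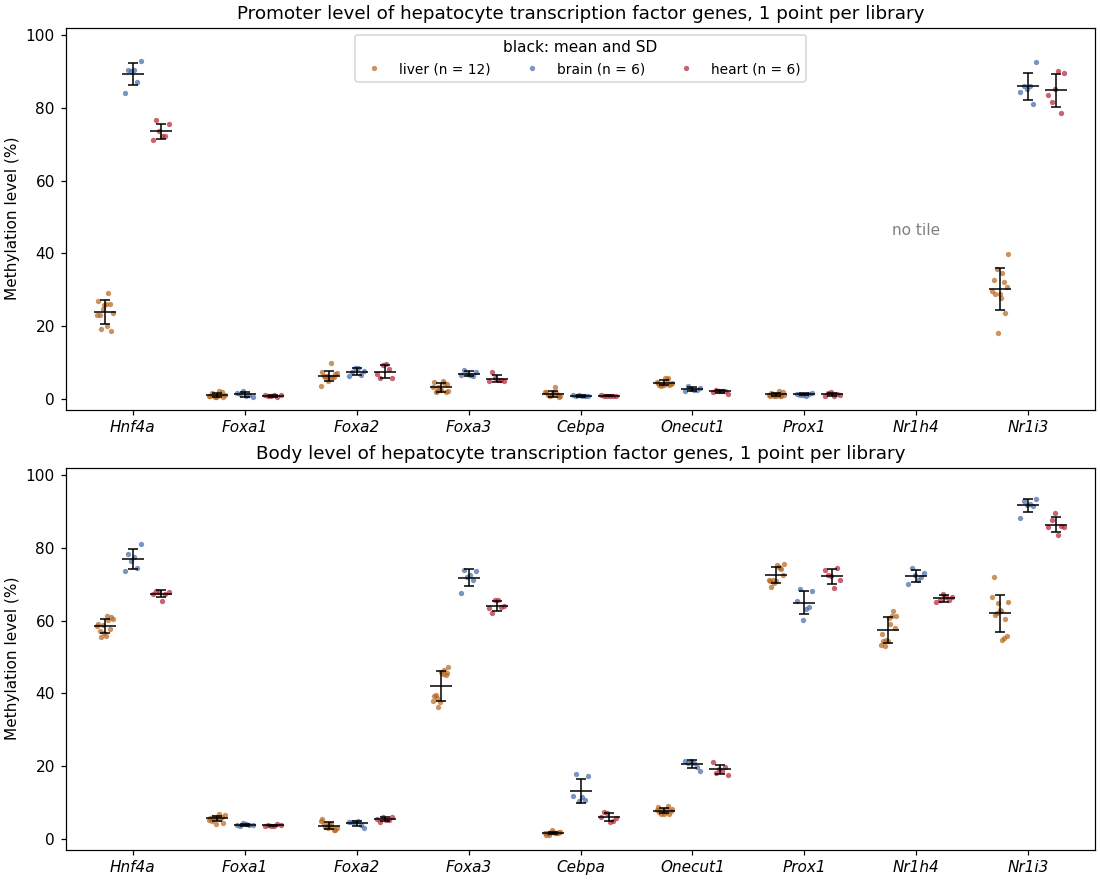
Methylation level (%) of the promoter (top) and body (bottom) of each gene in every library, with the mean and SD of each tissue in black. The Hnf4a and Nr1i3 promoter levels, nearly all from tiles downstream of a start, are low in the 12 liver libraries and high in all others. The body levels are closer together.

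Body levels, the mean over the remaining shared tiles of a gene, differed less. None of the 9 bodies was called by limma at the limit of 30 points, against 1.41% of all gene bodies called lower in liver than in brain and 0.813% lower than in heart. By p alone, 8 of the 9 differed from brain and 8 of the 9 from heart, at an unadjusted p below 0.05 and at an adjusted p of 0.01 or less alike. The share of all gene bodies within these limits of p is not given here, so these counts set the 9 genes apart from no others. Small differences were among them, such as 1.69 points at Foxa1 against brain (adjusted p = 9.4e-05 by limma). Foxa3 stood at 42.0% ± 4.12 (SD, n = 12) in liver, 71.8% ± 2.30 (n = 6) in brain and 64.1% ± 1.35 (n = 6) in heart. Its difference from brain of -29.8 points (adjusted p = 2.8e-14 by limma) missed the limit of 30 points, and was -30.6 points without the brain library of column 1. The Nr1i3 body was at 62.0%, 91.6% and 86.4%, and its difference of -29.7 points from brain (adjusted p = 7e-13 by limma) likewise became -30.3 points. Hnf4a had 58.5%, 76.9% and 67.3%, and Nr1h4 57.4%, 72.2% and 66.1%. Onecut1 had 7.75%, 20.5% and 19.1%, and Cebpa 1.64%, 13.2% and 5.91%. Prox1 went the other way against brain, with 72.5% in liver, 64.9% in brain and 72.1% in heart. The bodies of Foxa1 and Foxa2 were between 3.59% and 5.59% in every tissue.

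Hnf4a, at chr2:163506857-163572907 on the plus strand, has an upstream start, known as P2, and a start further in, P1, which adult hepatocytes use. Both were low in liver. The 2 tiles at the upstream start had means of 28.4% in liver, 88.5% in brain and 74.5% in heart. The 3 tiles at the inner start, all downstream of it, had 20.8%, 89.6% and 72.9%. The tile with the largest difference, chr2:163547302-163547401, lies in the first exon of the P1 transcript, from the end of its 5′ UTR through the first coding bases, and in an intron of the P2 transcripts. It had 11.2% to 31.1% in liver with a median of 23.8%, 92.4% to 98.3% in brain and 87.7% to 96.0% in heart. The liver libraries were all below the others, by 72.2 points against brain (SE 2.72, adjusted p = 4.1e-17 by limma) and 69.4 points against heart (adjusted p = 1.5e-16 by limma).

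Heart and brain differed at some tiles downstream of the P1 start. The intron tile printed above, 3′ of the first P1 exon, had 10.5% to 29.5% in liver, 77.4% to 94.6% in brain and 46.0% to 55.8% in heart, so that the 3 tissues did not overlap. Brain was higher than heart there by 38.8 points (adjusted p = 7.7e-10 by limma). At the tile of largest difference on the first P1 exon, brain and heart differed by 2.85 points (adjusted p = 0.51 by limma). Further along the gene, in intron 6, tiles at chr2:163559402-163559601 were at 13.6% and 13.7% in liver, 80.7% and 71.2% in brain and 31.5% and 14.7% in heart. At the second of them heart, at 12.1% to 20%, lay within the liver range of 2.7% to 25%, and the difference of -0.97 points had an adjusted p of 0.84 by limma. Conversely, 3 tiles at chr2:163550002-163550301 were at 22.1% to 30.9% in liver, 46.8% to 51.4% in brain and 58.9% to 74.0% in heart, and were called against heart only. Mean levels of heart thus lay near liver at the second of the intron 6 tiles, and above brain at these 3 tiles of intron 2. Brain and heart libraries overlapped at each of the 3 tiles, and none was called between brain and heart.

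Upstream of P1, runs of low tiles in liver stood at chr2:163533402-163533601, chr2:163540702-163540901 and chr2:163542002-163542201, with liver means of 14.6% to 42.5% and brain means of 64.2% to 93.8%. The coding tile in exon 3, with 8 CpGs, had 33.9%, 93.5% and 93.2%. In all, 18 of the 49 Hnf4a tiles were called lower in liver than in brain and 16 lower than in heart. Single tiles went the other way, such as one 22.1 kb into the gene with 70.5% in liver and 37.0% in brain. Tiles from the region upstream of the gene to part way into intron 2 also lie in the antisense gene Hnf4aos. Those furthest upstream lie in R3hdml as well, so these levels do not belong to Hnf4a alone. A further pair of Hnf4a tiles with a span of 30 points or more was missing from one table and had no fit: one at 48.0% in brain and 13.3% in heart, the other at 24.2% in liver and 80.7% in brain.

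Nr1i3, at chr1:171213970-171218845 on the plus strand, had 8 tiles, and 6 of them were called lower in liver than in both brain and heart. A run of 3 tiles at chr1:171214202-171214501, just inside the gene from intron 1 to exon 2, had means of 29.2% to 31.7% in liver, 85.0% to 87.6% in brain and 81.6% to 88.1% in heart. A second run at chr1:171216702-171217001, over exon 5 and intron 5, had 29.0% to 60.4%, 83.6% to 94.8% and 72.9% to 91.4%. At the first tile of the second run the liver libraries lay between 20.2% and 37.5%, the brain libraries between 80.6% and 90.2% and the heart libraries between 63.1% and 81.4%. The liver libraries were lower than all others there. At the last tile of this run, at 60.4% in liver, the groups touched although the difference was called. The 2 tiles that were not called were above 70% in every tissue.

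Nr1h4, at chr10:89454234-89533622 on the minus strand, had 7 tiles called lower in liver than in brain and 4 lower than in heart, all within introns. The intron 1 tile printed above had 0% to 7.3% in liver with a median of 3.35%, 67.3% to 84.1% in brain with a median of 79.0%, and 10% to 25.3% in heart with a median of 22.8%. The difference between liver and brain of -74.2 points (SE 2.09, adjusted p = 5.6e-19 by limma) was the largest of the 84 calls of the 9 genes against brain. Brain exceeded heart at this tile by 56.5 points (adjusted p = 6.3e-15 by limma). Intron 3 held a run at chr10:89484102-89484301 that was low in liver only, with 20.3% and 24.8% in liver, 93.0% and 81.4% in brain and 79.5% and 80.1% in heart. Nearby tiles in intron 4 were high in heart instead. The one at chr10:89482202-89482301 had 25.4% to 69.2% in liver, 37.9% to 59.6% in brain and 80.6% to 92.3% in heart, so that liver and brain overlapped and heart lay above both. The 4 tiles upstream of the gene had means of 91.5% to 97.7% over the tissues.

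Foxa3, at chr7:19013283-19023539 on the minus strand, had 13 of 39 tiles called lower in liver than in brain and 7 lower than in heart. All lay in the body, in intron 1 and in coding exon 2. The intron 1 tile printed above had 12.9% to 31.6% in liver, 88.9% to 100% in brain and 88.9% to 100% in heart, with medians of 20.8%, 90.9% and 92.9%. Liver lay below the others in every library, by 73.1 points against heart (SE 2.83, adjusted p = 1.3e-16 by limma). The tile that adjoins it, chr7:19019702-19019801, spread over 71.7 points in heart, from 8.3% to 80.0%, so that heart overlapped the liver range of 5.2% to 33.3%. Coding tiles at chr7:19014602-19014801 had 20.7% and 26.9% in liver against 70.2% and 74.6% in brain.

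At chr7:19017802-19018001, in intron 1 of Foxa3, the liver libraries formed separate levels. At the second of these 2 tiles, 6 libraries lay between 21.1% and 31.5% and 6 between 74.4% and 86.9%, a step of 42.9 points with no library inside it. At the first tile 6 libraries lay between 21.1% and 34.8% and 6 between 75.9% and 84.1%, and the same 6 libraries were low at both. The widest step between neighbouring liver libraries at any other tile of the 9 genes was 21.2 points. The same 6 libraries were also the 6 lowest at 3 of the 17 promoter and body levels. The body of Foxa3, which includes these tiles, had 36.2% to 39.4% in them and 45% to 47.1% in the others. The Nr1h4 body had 53.0% to 56.4% and 58.1% to 62.7%, and the Prox1 body 69.2% to 71.2% and 72.6% to 75.4%. These are descriptions with no test. Brain libraries were at 92.3% to 100% and heart libraries at 86.7% to 94.7% at the second tile, without such a split. The upper liver libraries overlapped heart there although the difference of -35.1 points was called. The 6 low libraries were those of liver columns 1 to 6, and the 6 high ones those of columns 7 to 12. No label says what the order of the columns stands for. No column can be tied to a mouse or a gender, and whether the 2 levels go with gender was not tested. The liver means of 52.8% and 54.5% describe neither level.

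**Figure D4:**
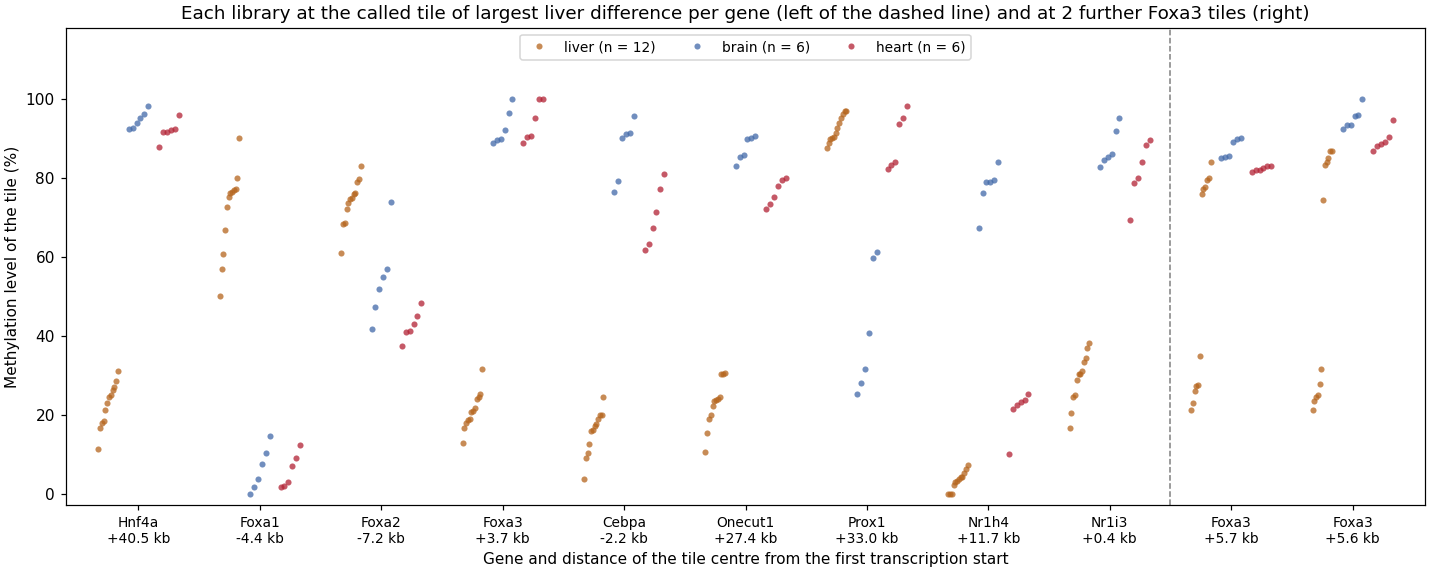
Methylation level (%) of every library at the called tile with the largest liver difference of each gene, and, right of the dashed line, at the 2 Foxa3 intron tiles with separate liver levels, with points sorted by value within a tissue. Liver libraries lie apart from brain or heart at the left tiles, and at the right tiles 6 liver libraries lie at or below 34.8% and 6 at or above 74.4%.

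Cebpa, at chr7:35119293-35121928 on the plus strand, differed outside its unmethylated start. Upstream, 4 tiles between 2.2 and 3.3 kb before the start were lower in liver than in brain. The printed tile had 3.7% to 24.5% in liver, 76.5% to 95.7% in brain and 61.6% to 80.9% in heart, with medians of 16.7%, 90.6% and 69.3%. The liver was below every other library, by 71.8 points against brain (SE 3.46, adjusted p = 3.3e-15 by limma) and 54.8 points against heart (adjusted p = 9e-13 by limma). A tile with 1 CpG in the 3′ UTR, chr7:35120902-35121001, had 0% to 6.2% in liver, 46.2% to 78.4% in brain and 17.2% to 35.2% in heart. The tissues did not overlap there, and brain exceeded heart by 35.3 points (adjusted p = 3.9e-08 by limma). Further upstream, 6.4 kb before the start, a tile was higher in liver, at 87.6% against 56.5% in heart.

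Onecut1, at chr9:74861921-74889648 on the plus strand, carried both directions. Upstream, 12 of 16 tiles were called higher in liver than in brain and 13 higher than in heart. These 13 tiles lay between 1.1 and 8.0 kb before the start, with means of 38.9% to 66.4% in liver, 2.82% to 34.6% in brain and 2.28% to 20.8% in heart. At chr9:74854602-74854701, a tile with 5 CpGs, the liver libraries lay between 39.7% and 67.4%, the brain libraries between 2.2% and 9.4% and the heart libraries between 1.3% and 10%. Liver was higher by 50.6 points than brain (SE 2.96, adjusted p = 1.5e-13 by limma) and by 50.8 points than heart. Close to the start, at chr9:74860602-74860901, liver had 58.8% to 66.4% while the promoter tiles next to it had a median of 1.2%. In the last exon the direction turned. The coding tile printed above had 10.5% to 30.5% in liver, 83.0% to 90.5% in brain and 72.0% to 80.0% in heart, and liver was lower by 64.5 points against brain (SE 2.85, adjusted p = 6.6e-16 by limma). In all, 4 adjoining tiles of this exon were called lower than in brain and 3 lower than in heart.

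Foxa1, at chr12:57540628-57546111 on the minus strand, had 5 tiles called against brain and 6 against heart of 34 tested, all of them upstream and higher in liver. Smaller differences lay in its body, where 1 tile had 21.1% in liver and 0.8% in brain. The run at chr12:57550402-57550801, 4.3 to 4.6 kb before the start, held 4 tiles and 17 CpGs. Its means were 47.1% to 71.5% in liver, 2.77% to 6.28% in brain and 1.58% to 5.82% in heart. The printed tile had 50% to 90.0% in liver with a median of 75.6%, 0% to 14.7% in brain and 1.7% to 12.2% in heart. The groups were apart, with a difference of 65.7 points from heart (SE 4.19, adjusted p = 1e-12 by limma). At the tile next to it, with 7 CpGs, liver had 35.7% to 65.0%, brain 1.8% to 7.8% and heart 0% to 3.6%, so the difference did not rest on the single CpG. Foxa2, at chr2:148042877-148046969 on the minus strand, had a single call. A tile 7.2 kb upstream had 61.0% to 83.1% in liver, 41.7% to 73.9% in brain and 37.5% to 48.3% in heart, and liver exceeded heart by 31.3 points (SE 3.69, adjusted p = 8.4e-08 by limma). Of its 33 tiles, 26 were below 10% in each tissue.

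Prox1, at chr1:190118035-190170827 on the minus strand, held 7 tiles lower and 6 higher in liver than in brain. The lower ones included 5 tiles upstream, 1.8 to 2.6 kb before the start and within the antisense gene Prox1os, with 1.82% to 3.12% in liver, 32.3% to 45.6% in brain and 9.72% to 23.6% in heart. The tile with 8 CpGs among them had 0.9% to 5.7% in liver, 23.0% to 61.8% in brain and 15.3% to 19.0% in heart. Liver was lowest in every library, although its difference of -14.0 points from heart was below the limit. In intron 4 the run at chr1:190137802-190138101 was low in brain only, with 35.8% to 47.0% in brain against 79.8% to 92.4% in liver and 76.1% to 89.4% in heart. The printed tile of this run had 25.3% to 61.1% in brain, 87.5% to 97.0% in liver and 82.2% to 98.3% in heart, and brain was lower than heart by 48.4 points (adjusted p = 1.1e-08 by limma). Brain libraries spread widely over this tile, and without overlap with the others. About 1 kb away in the same intron, tiles at chr1:190139202-190139401 were low in liver, with 26.2% and 41.2% against 72.3% and 80.3% in brain. The Prox1 intron thus held neighbouring runs low in different tissues.

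Other transcription factors of the liver, a list of 16 genes with 713 shared tiles, had 138 tiles lower in liver than in brain (19.4%) and 32 higher (4.49%), and 103 lower than in heart (14.4%) and 67 higher (9.40%). Rxra, the shared partner of many nuclear receptors, had 39 of 84 tiles lower than in brain, and Ppara, the receptor that controls fatty acid oxidation, 31 of 59. These 2 genes gave 70 of the 138 tiles, and the other 14 genes had 68 of 570 (11.9%). Other genes of the list leaned to the other direction, such as Gata6 with 10 of 62 tiles higher in liver and Gata4 with 13 higher and 6 lower of 75. The median difference from brain over this list was -1.14 points. The 195 tiles of 8 neural transcription factors gave no call between liver and brain or heart by limma at the limit of 30 points, with largest differences of 26.2 and 25 points. At an unadjusted p below 0.05, 97 of these tiles differed from brain and 91 from heart. The share of all shared tiles at that p is not given here, so these 2 counts show no trait of the neural factors. The 324 tiles of 8 cardiac factors gave 8 tiles lower (2.47%) and 21 higher (6.48%) in liver than in brain, against 3.68% and 3.5% of all tiles. Against heart, 8 were lower (2.47%) and 26 higher (8.02%) in liver, with 2.35% and 5.49% of all tiles. Brain was lower than heart at 17 (5.25%) and higher at 22 (6.79%), with 1.08% and 4.79% of all tiles. Gata4 stands on both the liver and the cardiac list. Differences between these lists were not tested.

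Markers of blood and vessel cells also differed between tissues. The bodies of Ptprc, Spi1, Pecam1 and Cdh5, 4 of 4, were lower in heart than in liver, by 7.38 to 22.5 points. None of these 4 differences was called. Over all shared tiles liver also exceeded heart, by a median of 3.5 points. The bodies of Spi1, Pecam1 and Cdh5 were lowest in heart, but that of Ptprc was lowest in brain, at 58.1% against 62.1% in heart. The Pecam1 promoter had 78.2% in liver, 73.3% in brain and 42.7% in heart. It was called lower in heart than in liver, by 35.5 points (adjusted p = 2e-10 by limma), and than in brain, by 30.55 points (adjusted p = 8e-08 by limma). The promoters of Spi1 and Cdh5 were not called between any tissues. Prox1 is itself used by lymphatic vessels. The part of such cells in the differences between liver and heart given above was not tested.

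The called tiles were also described by their sequence, which the choice of genes did not use. The 60 tiles lower in liver than in brain held a median of 3.0 CpGs and the 24 higher ones 3.5, against 4.0 over the 335 tiles and 2.0 over all shared tiles. At least 5 CpGs were present in 10% of the lower tiles and 29.2% of the higher ones, against 38.8% of the 335 tiles and 20.6% of all shared tiles. Over the whole series, 7.44% of the tiles called lower and 12.7% of those called higher held as many. Motifs were sought as letters on both strands. The forkhead motif TGTTTAC was in 1.67% of the 60 lower tiles and 1.06% of all tiles, and CAAAG, part of the HNF4 motif, in 30% and 23.7%. TTGCNNAA, a C/EBP motif, was in 3.33% and 3.54%, ATTGAT, a Onecut motif, in 1.67% and 2.75%, and AGGTCA, a core motif of nuclear receptors, in 5% and 5.74%. CCGG, the site of the enzyme MspI, was in 65.0% and 58.1%. Among the 60 tiles, the forkhead and Onecut motifs were in 1 tile each, C/EBP in 2 and AGGTCA in 3. These counts are too few to compare with all tiles. Over the whole series, the forkhead motif was in 3.03% of the tiles called lower, C/EBP in 5.76% and Onecut in 5.55%. AGGTCA was in 3364 of these 27922 tiles, against 43540 of the 758685 shared tiles. CAAAG was in 29.4% and CCGG in 54.7% of the 27922. All are matches of letters and not sites of binding.

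Levels of single tiles varied within a tissue as well. The median SD over the 335 tiles was 3.88 points in liver, 2.98 in brain and 2.80 in heart, while all shared tiles gave 4.45, 4.61 and 4.34. The 335 tiles also had lower median levels, 17.6%, 25.6% and 19.5%, against 80.8%, 79.5% and 71.9% over all shared tiles. Spreads were not compared between tiles of like level, so the smaller SDs set these genes apart from no others. The span between the lowest and highest library reached 30 points at 34 tiles over 12 liver libraries (10.1%, against 11.5% of all shared tiles). Over 6 libraries each, it did so at 28 tiles in brain (8.36% against 9.26%) and 10 in heart (2.99% against 3.74%). In brain the widest span, 59.4 points, was at an Hnf4a tile 23.4 kb into the gene, where libraries lay between 27.3% and 86.7%. The tables give no read counts, so the counting error behind a level is unknown beyond the authors' minimum of more than 10 reads.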

How the data were processed

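DNA methylation was measured by eRRBS in 12 liver, 6 brain and 6 heart libraries. A sequencing service made and mapped the libraries by its own methods. The authors reformatted its calls, joined them in tiles of 100 bases on mm10 with methylKit and required over 10 reads per tile in every sample. The deposited values are methylation fractions between 0 and 1, 1 column per library and 1 table per tissue, without read counts, so the depth is unknown. Fractions are printed as percent.

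The deposited positions count from 0. Moved by 1 base, 0 of 1005908 tiles lacked a CpG, against 1687 as deposited, so 1 was added to each start and end. Genes and sequences came from the RefSeq annotation of GRCm38. Loci ran from 10000 bases upstream to the gene end, promoters from 1000 bases upstream to 500 downstream of any curated start, and a tile belonged to each region it touched, promoters first.

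Fractions of the tiles in all 3 tables were fitted with limma 3.58.1 (R 4.3.3, moderated test with trend, 24 libraries, Benjamini-Hochberg over 758685 tiles). Mean levels of 17645 promoters and 19189 bodies were fitted likewise. Libraries were taken as separate samples, and p-values measure the spread between them. Calls needed an adjusted p of 0.01 or less and a difference of 30 points or more. The functions were tested on simulated data. For each gene the called tile of largest liver difference and runs of adjoining calls were named, and the Foxa3 tiles of separate liver levels were picked after seeing their values. The genes and lists were chosen with earlier results of these data known. A logit scale, no trend, medians, pairwise tables, other limits and other promoter definitions were the alternatives, and leaving out 1 brain library was added after seeing the data. Columns of unknown gender allowed no test of gender.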

Additional observations from a re-analysis of the deposited data

Results flagged for a closer look

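Of 34 groups of 6 libraries tested for a single library far from the others, 4 stood out, and chance gives about 1 in 20. The highest heart library had a Cebpa promoter level of 0.98%, with the others between 0.81% and 0.87%. The highest heart library at the Foxa3 promoter had 7.41%, with the others between 4.96% and 5.63%. The lowest heart library over the Hnf4a body had 65.46%, with the others between 67.31% and 68.09%. The lowest brain library over the Nr1i3 body had 88.18%, with the others between 91.48% and 93.44%.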

How the results depend on the processing

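The counts of member tiles called in liver against brain and against heart stayed within 1.5 times of the reported count under each alternative run. The counts of brain against heart moved with the limit on the difference: 6 tiles lower in brain became 10 at 20 points and 3 at 40 points, and 11 tiles higher in brain became 28 and 5. Among promoter and body levels of single genes, 97 of the 106 values under the alternatives kept their direction and their side of the limit, and 3 came to 0. Small differences changed sign: Prox1 promoter, liver minus brain, from -0.02 points to 0.05 with all tiles and 0.01 without the brain library of column 1, Foxa2 promoter, brain minus heart, from -0.05 to 0.21 without that library, and Cebpa promoter, brain minus heart, from -0.08 to 0.02 with upstream tiles only. The body levels of Foxa3 (-30.63 points) and Nr1i3 (-30.34 points) against brain passed the limit without the brain library of column 1. A higher coverage minimum was not run, since the tables hold no read counts, and how far depth limits a level is unknown for the same reason. No paired analysis was possible because the columns carry no mouse number.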
